A study of Mus musculus with 16 samples.

Results

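The 9 genes described here, Tap1, Tap2, Tapbp, Psmb8, Psmb9, Psmb10, Nlrc5, B2m and Erap1, make, load or switch on the machinery that prepares peptides for MHC class I. They were taken by symbol from the 30141 gene rows of the RNA-seq count files. All 9 were found and all 9 passed the filter on low counts, which left 18341 genes. The libraries came from sorted bone marrow LSK cells (lineage-negative, Sca1-positive, Kit-positive), the fraction that holds blood stem cells and early progenitors. They formed 4 groups: 5 libraries of R882H with azacitidine, 4 of R882H with NaCl, 3 of WT with azacitidine and 4 of WT with NaCl. Azacitidine, a cytidine analogue that traps DNA methyltransferases, was given to the transplanted mice at 2.5 mg per kg over 2 weeks. The injections ran in courses of 5 days, with 2 days between courses. The NaCl groups received 0.9% NaCl.

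R882H cells carried human DNMT3A with the R882H mutation, knocked into the endogenous locus behind a stop cassette, beside a WT mouse allele. The cassette was removed by Mx1-Cre, an interferon-responsive Cre, after poly(I:C), an interferon inducer, and the labels describe poly(I:C) for Cre-positive and Cre-negative donors alike. The labels give both 15 µg per g on 3 days and 400 µg per injection, without saying which animals had which. After 4 weeks, marrow of these donors was transplanted into CD45.1 recipients beside an equal part of CD45.1 WT marrow. Whether the sort separated donor from CD45.1 cells is not stated, so the share of WT competitor cells in a library is unknown. The labels also do not give a mouse for each library, so p-values measure only the spread between these libraries, which may be technical.

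The proteasome cuts cytosolic proteins into peptides, and in cells exposed to interferon its 3 catalytic subunits are replaced by Psmb8, Psmb9 and Psmb10, which form the immunoproteasome. Peptides cross into the endoplasmic reticulum through the Tap1 and Tap2 transporter, are trimmed there by the aminopeptidase Erap1, and are loaded by a complex in which tapasin (Tapbp) bridges the transporter and the class I heavy chain. The heavy chain reaches the cell surface with its light chain, B2m, and Nlrc5 is the transcriptional coactivator of many of these genes. In blood progenitors as in most nucleated cells these genes have a basal level and are raised by interferon.

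Of the 9 members, 5 lie within or beside the MHC on chromosome 17 of GRCm38: Tapbp at chr17:33915899-33929292, Psmb9 at chr17:34181987-34187764, Tap1 at chr17:34187553-34197225, Psmb8 at chr17:34197721-34201454 and Tap2 at chr17:34203527-34216321. Psmb9 is on the minus strand and the other 4 are on the plus strand. B2m is on chromosome 2 at chr2:122147686-122153083 and Erap1 on chromosome 13 at chr13:74639568-74693201, both on the plus strand. Nlrc5 (chr8:94434356-94527272, plus strand) and Psmb10 (chr8:105935735-105938444, minus strand) are both on chromosome 8. All are annotated as protein-coding and were counted by gene.

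RefSeq promoter windows (GRCm38.p6, from 250 bases before to 50 bases after the start site) were matched to 7 of the 9 members. By RefSeq start sites, Tap1 and Psmb9 were transcribed away from each other, from sites 226 bases apart, so that their windows share 275 bases. In the gene coordinates given above, they overlap at their 5' ends. The Tap1 window is printed because it holds both start sites, and those of B2m, Erap1 and Psmb8 because they hold a core of an interferon-responsive element. Capitals mark GAAANNGAAA, the core of the interferon-stimulated response element (ISRE), in B2m and, as its reverse complement, in Erap1. They mark TTCNNNGAA, the core of the interferon-gamma activated site (GAS), in Psmb8.
Tap1, chr17:34187306-34187605, plus strand: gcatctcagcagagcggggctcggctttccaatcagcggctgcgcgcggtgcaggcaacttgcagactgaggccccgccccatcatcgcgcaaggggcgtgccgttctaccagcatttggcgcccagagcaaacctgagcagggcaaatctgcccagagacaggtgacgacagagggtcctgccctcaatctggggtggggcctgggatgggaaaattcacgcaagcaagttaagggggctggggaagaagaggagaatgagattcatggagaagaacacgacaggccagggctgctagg
B2m, chr2:122147437-122147736, plus strand: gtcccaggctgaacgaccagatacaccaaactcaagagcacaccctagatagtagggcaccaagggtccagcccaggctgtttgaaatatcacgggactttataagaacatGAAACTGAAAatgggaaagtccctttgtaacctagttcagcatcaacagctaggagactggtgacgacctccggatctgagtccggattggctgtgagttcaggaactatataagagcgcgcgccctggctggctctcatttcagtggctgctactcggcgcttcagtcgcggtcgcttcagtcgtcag
Erap1, chr13:74639603-74639902, plus strand: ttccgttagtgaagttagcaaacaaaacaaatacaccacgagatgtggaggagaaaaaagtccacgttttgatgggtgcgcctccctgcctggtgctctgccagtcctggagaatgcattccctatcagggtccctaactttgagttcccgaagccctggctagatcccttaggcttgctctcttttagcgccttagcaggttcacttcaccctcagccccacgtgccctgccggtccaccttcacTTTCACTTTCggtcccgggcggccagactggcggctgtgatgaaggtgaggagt
Psmb8, chr17:34197945-34198244, plus strand: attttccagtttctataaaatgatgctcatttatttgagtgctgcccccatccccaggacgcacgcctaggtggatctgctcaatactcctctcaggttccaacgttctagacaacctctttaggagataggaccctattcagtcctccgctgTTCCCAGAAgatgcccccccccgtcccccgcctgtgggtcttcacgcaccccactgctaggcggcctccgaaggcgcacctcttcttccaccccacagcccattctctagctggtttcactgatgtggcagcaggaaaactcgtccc

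Both strands were searched. The ISRE core was found in 3.44% of 32851 RefSeq promoter windows and the GAS core in 8.3%, and no marked match overlapped another. The ISRE core began 139 bases before the start site in B2m and 4 bases before it in Erap1, and the GAS core began 97 bases before that of Psmb8. These distances are from RefSeq start sites. In the gene coordinates given above, the whole windows of Erap1, Psmb8, Psmb9 and Tapbp lie within the annotated gene. CCAAT, the box bound by NF-Y, was found in the windows of Tap1, Psmb9, B2m and Tapbp, against 37.4% of all windows, and the Tap1 and Psmb9 matches are 1 and the same site in the bases they share. The CpG sites that DNA methyltransferases act on numbered 17 in the Psmb9 window, 15 in Tap1, 14 in B2m, 12 in Erap1, 11 each in Tapbp and Psmb8 and 3 in Psmb10, and the median of all windows was 7. Methylation was not measured.

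On a scale per length (FPKM), B2m was the highest member, at 2715 ± 487.8 FPKM (SD over all 16 libraries). The immunoproteasome and loading genes followed, with Psmb8 at 144.9 ± 28.9, Psmb10 at 112 ± 18.8, Tapbp at 102.4 ± 17.2, Tap2 at 92.9 ± 13.9, Psmb9 at 71.2 ± 13.2 and Tap1 at 59 ± 9.02 FPKM. Erap1, at 14.3 ± 3.19 FPKM, and Nlrc5, at 7.13 ± 2.83 FPKM, were the lowest. B2m was above Psmb8, Tap1 above Erap1 and Erap1 above Nlrc5 in all 16 libraries. Psmb10 and Tapbp could not be ordered, since Psmb10 was the higher in 8 of 16. Psmb8 was above Psmb10 in 14 libraries, Tapbp above Tap2 in 13, Tap2 above Psmb9 in 15 and Psmb9 above Tap1 in 12, and the SDs of each of these pairs overlapped. These FPKM levels use the counted length, from 860 bases for B2m to 8493 for Nlrc5.

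Total counts ran from 35860445 to 56012766 per library, and the lowest count of any member was 1134, for Nlrc5. All 10 LSK markers were present, with Kit between 42 and 134 FPKM and Ly6a between 23.9 and 209 FPKM. Dnmt3a, read from the mouse annotation and so not separating the alleles, lay between 90.8 and 103 CPM in R882H with azacitidine, 62.9 and 108 CPM in R882H with NaCl, 80.2 and 146 CPM in WT with azacitidine and 82.9 and 106 CPM in WT with NaCl. One library stood apart among the members. R882H with NaCl replicate 2 was the lowest of all 16 for 7 of the 9 genes, all but Tapbp and Erap1. It also had the lowest summed LSK markers, at 252 FPKM against 359 to 849 in the other libraries, and the highest summed erythroid and megakaryocyte markers, at 4300 FPKM against 224 to 1550. The summed 30 interferon-stimulated genes were lowest there too, at 240 FPKM, but only just, against 247 to 454 FPKM in the other libraries. In bulk RNA, fewer cells of a type and less RNA per cell cannot be told apart.

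No member passed an adjusted p of 0.05 in any of the 6 comparisons, by edgeR's quasi-likelihood test or by DESeq2. Single genes are given below in CPM, counts scaled to the TMM-normalised library size. By edgeR, 0.00545% of all genes tested were called for azacitidine against NaCl in R882H (1 gene), 0% in WT, 0% for the difference between these responses, 0.00545% for R882H against WT under azacitidine, 0.00545% under NaCl, and 0.0218% for azacitidine averaged over both genotypes (4 genes). At an unadjusted p under 0.05, edgeR listed between 1026 and 1713 genes per comparison, or 5.59 to 9.34% of the genes tested. Of the members, it listed Tap2 for azacitidine in R882H and on average, and Tapbp for R882H against WT under azacitidine. DESeq2 called 88 genes for azacitidine in R882H, 50 in WT, 13 for the difference, 21 and 31 for the genotypes under azacitidine and NaCl, and 161 on average.

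**Figure D1:**
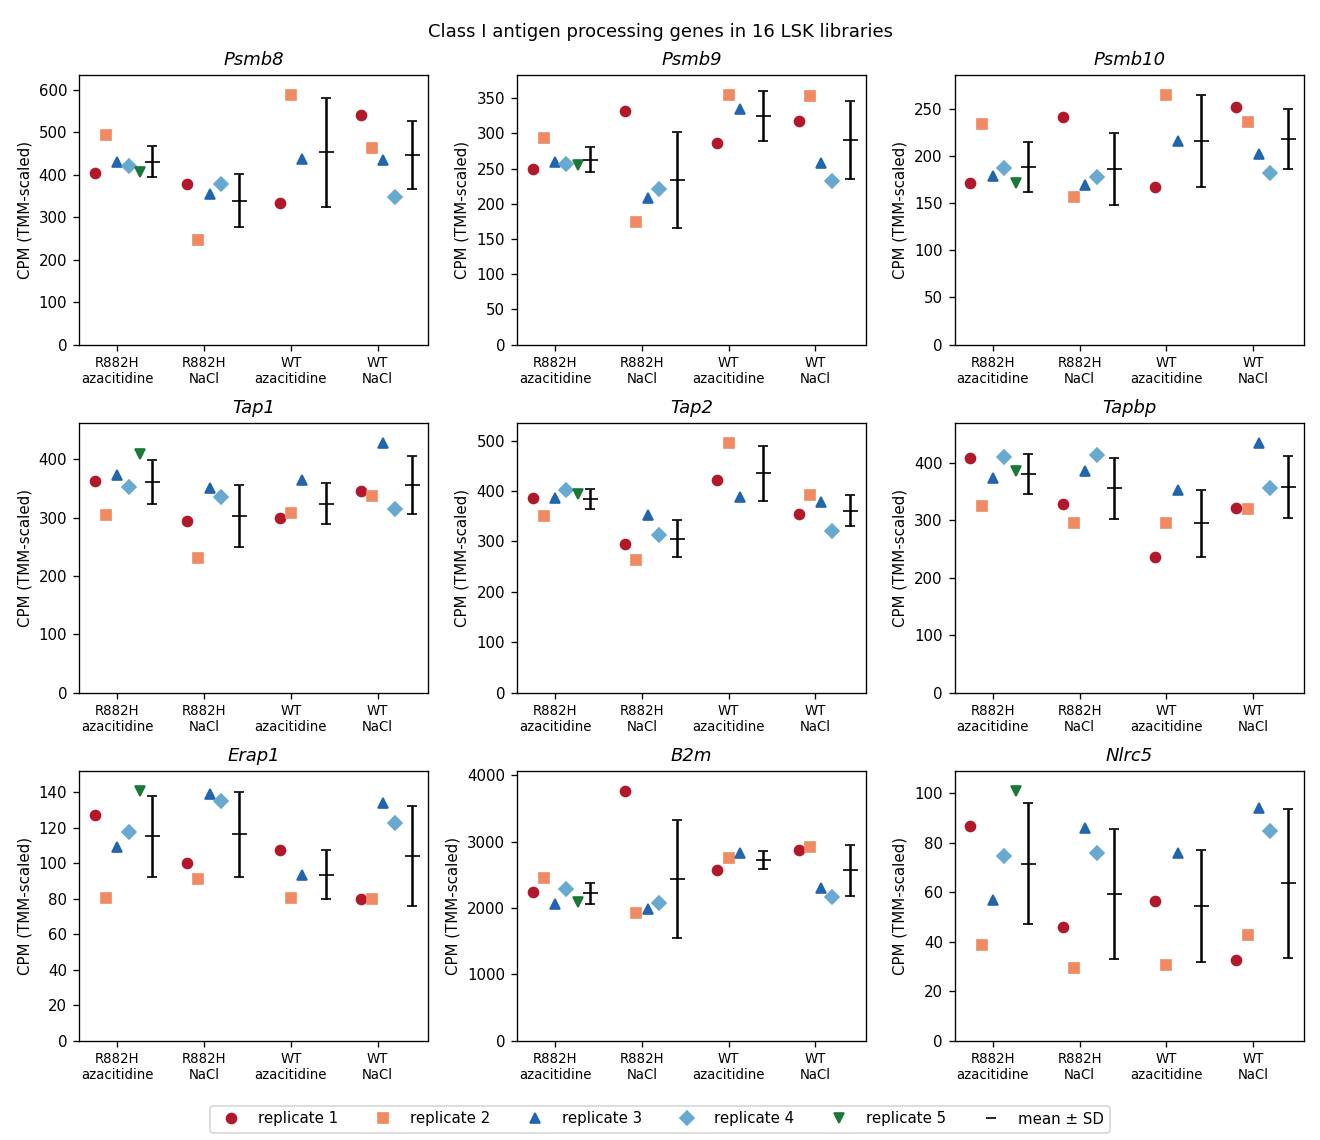
CPM (TMM-scaled, vertical axis from 0) of the 9 members in every library, grouped left to right as R882H with azacitidine, R882H with NaCl, WT with azacitidine and WT with NaCl. Symbols mark the replicate number and black bars the mean ± SD (n = 5, 4, 3 and 4). Psmb8 in R882H with azacitidine was at 403 to 494 CPM, above all R882H NaCl libraries.

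Tap2, the transporter's second chain, varied least among the R882H azacitidine libraries of all members (coefficient of variation 5.22%), at 387, 350.1, 386, 402 and 394 CPM, against 295, 263, 352 and 313 CPM in R882H with NaCl. In WT it was at 422, 496 and 389 CPM with azacitidine, against 354, 391, 379 and 321 CPM with NaCl. In R882H, 4 of the 5 azacitidine libraries stood above every NaCl library, and replicate 2 was just below the highest of them. The log2 fold change for azacitidine was 0.33 (SE 0.121, 95% interval 0.07 to 0.58) in R882H and 0.27 (SE 0.136, -0.02 to 0.56) in WT, and 0.30 (SE 0.091) on average. The adjusted p by edgeR was 0.606, 0.86 and 0.378, and by DESeq2 0.233, 0.629 and 0.0668. Without R882H NaCl replicate 2 the R882H value was 0.26, and the difference between the genotypes' responses was 0.06 (95% interval -0.33 to 0.45).

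Tap1, the partner chain, was at 363, 304, 374, 353 and 409 CPM in R882H with azacitidine, against 295, 231, 351 and 335 CPM with NaCl. In WT it was at 300 to 365 CPM with azacitidine, against 314 to 428 CPM with NaCl. The groups overlapped in both genotypes. The log2 fold change was 0.25 (SE 0.146) in R882H and -0.14 (SE 0.166) in WT, a difference of 0.39 (SE 0.222, adjusted p = 0.763 by edgeR), which was 0.28 without R882H NaCl replicate 2. The R882H value itself was 0.14 without that library and 0.07 without R882H NaCl replicates 1 and 2. Tap1 was 0.65 ± 0.048 of Tap2 in FPKM in R882H with azacitidine, 0.68 ± 0.056 in R882H with NaCl, 0.52 ± 0.113 in WT with azacitidine and 0.68 ± 0.076 in WT with NaCl.

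Tapbp, tapasin, was at 409, 326, 374, 411 and 386 CPM in R882H with azacitidine, against 236, 296 and 353 CPM in WT with azacitidine. Under NaCl it was at 329, 296, 386 and 414 CPM in R882H, against 322, 320.1, 435 and 357 CPM in WT. The WT azacitidine libraries included the lowest Tapbp of the series, and the azacitidine groups overlapped. R882H minus WT was 0.37 (log2, SE 0.166, 95% interval 0.02 to 0.72, adjusted p = 0.533 by edgeR) under azacitidine and -0.01 (SE 0.158) under NaCl. The response to azacitidine was 0.10 in R882H and -0.28 in WT, and the difference of 0.38 (SE 0.229) had an adjusted p of 0.763 by edgeR. The R882H response was 0.02 without R882H NaCl replicate 2 and -0.07 without R882H NaCl replicates 1 and 2. Reads of Zbtb22, which overlaps Tapbp on the same strand, were at most 2413 per library, against at least 9840 for Tapbp.

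Psmb8, the inducible chymotrypsin-like subunit, was the only member whose R882H groups did not overlap, at 403, 494, 430, 420 and 406 CPM with azacitidine, against 379, 246, 354 and 377 CPM with NaCl. Over all genes, 1.57% had groups that did not overlap in that comparison, against 1 of the 9 members. The log2 fold change was 0.35 (SE 0.18, 95% interval -0.04 to 0.73, adjusted p = 0.764 by edgeR), and 0.22 without R882H NaCl replicate 2. In WT, Psmb8 was at 333, 588 and 437 CPM with azacitidine, against 541, 463, 434 and 348 CPM with NaCl, and the fold change was 0.02 (SE 0.204). This WT value was -0.22 without WT azacitidine replicate 2, the highest of the 16. Under NaCl, R882H minus WT was -0.40 (SE 0.189), the largest of the members there; it was -0.66 in libraries numbered 1 and 2 and -0.09 in those numbered 3 and above.

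Psmb9 and Psmb10 are the other inducible subunits. Psmb9 averaged 262 ± 17.5 CPM in R882H with azacitidine and 234 ± 68.3 CPM with NaCl, and 325 ± 35.4 CPM in WT with azacitidine and 290 ± 55.1 CPM with NaCl. Psmb10 averaged 189 ± 26.3 CPM in R882H with azacitidine and 186 ± 37.8 CPM with NaCl, and 216 ± 49.1 CPM in WT with azacitidine and 218 ± 31.9 CPM with NaCl. For both genes, every pair of groups overlapped. The R882H response of Psmb9 was 0.17 (log2, SE 0.174). It was 0.39 without R882H NaCl replicate 1, whose 332 CPM was the highest of its group, and 0.05 without replicate 2, whose 174 CPM was the lowest. R882H minus WT was -0.31 (log2) for Psmb9 under azacitidine (adjusted p = 0.566 by edgeR) and -0.31 under NaCl (adjusted p = 0.95), where it was -0.52 without R882H NaCl replicate 1 and -0.20 without replicate 2.

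B2m, the class I light chain, was at 2233, 2447, 2058, 2291 and 2087 CPM in R882H with azacitidine, against 2571, 2748 and 2834 CPM in WT with azacitidine. These groups did not overlap, which was so for 10.7% of all genes in that comparison. The log2 fold change was -0.29 (SE 0.208, 95% interval -0.73 to 0.15, adjusted p = 0.608 by edgeR). Under NaCl it was at 3766, 1930, 1979 and 2070 CPM in R882H, against 2873, 2923, 2307 and 2163 CPM in WT, and 1 R882H library, replicate 1, stood far above the others. R882H minus WT under NaCl was -0.07 with that library and -0.35 without it, and the R882H response to azacitidine was -0.13 with it and 0.16 without it. Without replicate 2 in its place, these values were 0.02 and -0.23. Cd3d, a T cell receptor subunit, was at 11.2 FPKM in R882H NaCl replicate 1, against at most 1.24 FPKM in the others. Summed T and NK cell markers, 98.6% of them Nkg7 over all libraries, were at 454 FPKM there, against 254 to 868 FPKM in the others. The part of such cells in the B2m value was not tested.

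Erap1 was at 80.5 to 141 CPM in R882H with azacitidine, against 91.4 to 139 CPM with NaCl, and at 80.4 to 107 CPM in WT with azacitidine, against 79.7 to 134 CPM with NaCl. The fold changes for azacitidine were -0.01 (log2, SE 0.201) in R882H and -0.15 (SE 0.23) in WT, and the R882H value was -0.11 without R882H NaCl replicate 2. Erap1 lies opposite Cast, whose counts reached 5057 in a library against at least 2970 for Erap1, and the strand setting of the counting is not given, so its level is uncertain. The same holds for Tap1 and Psmb9, which overlap at their 5' ends in the gene coordinates.

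Nlrc5, the coactivator, was the most variable member, with a highest to lowest ratio of 3.43 in CPM, against 1.69 to 2.39 for the others. It was at 86.6, 38.8, 56.7, 74.8 and 101 CPM in R882H with azacitidine, against 45.8, 29.4, 85.9 and 75.9 CPM with NaCl. In WT it was at 56.4, 30.7 and 75.7 CPM with azacitidine, against 32.8, 42.9, 93.9 and 84.7 CPM with NaCl. Every group held both low and high libraries, and the groups overlapped. The fold change for azacitidine was 0.27 (log2, 95% interval -0.54 to 1.09) in R882H and -0.23 (-1.15 to 0.70) in WT, the widest intervals of any member. The R882H value was 0.05 without R882H NaCl replicate 2 and -0.18 without R882H NaCl replicates 1 and 2. It was 0.74 in libraries numbered 1 and 2 and -0.08 in those numbered 3 and above.

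**Figure D2:**
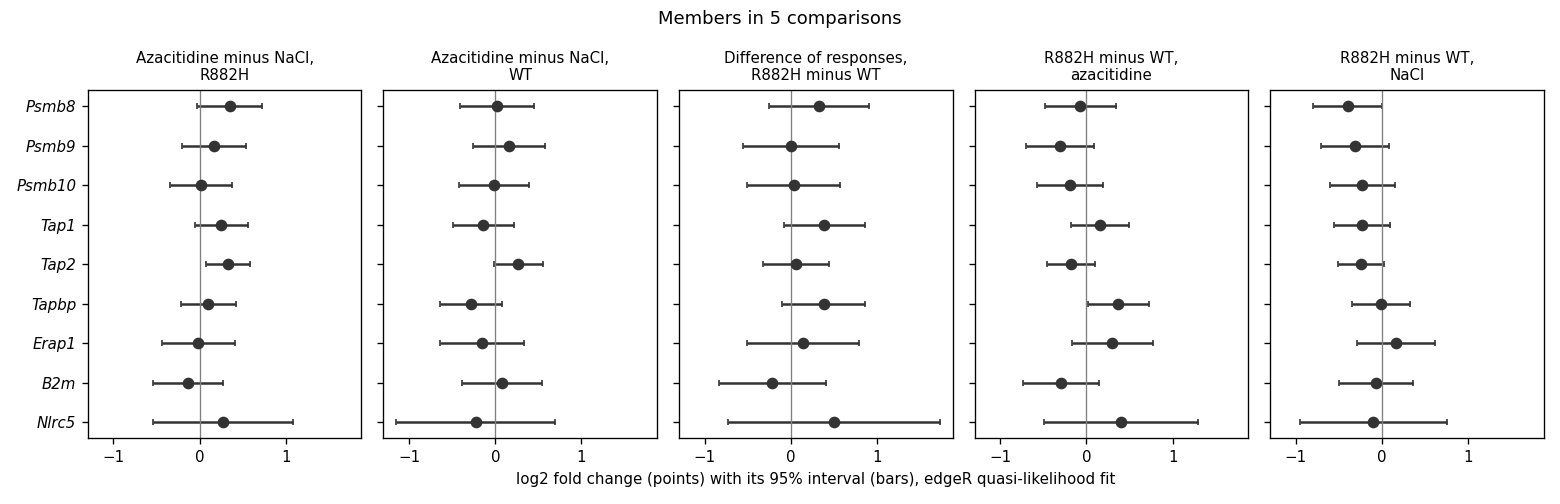
Log2 fold change (points) with its 95% interval (bars) of each member in 5 comparisons, from the edgeR fit over all genes, with the genes down the side. Only Tap2 in R882H (0.07 to 0.58) and Tapbp between genotypes under azacitidine (0.02 to 0.72) have intervals above 0, before adjustment for the 18341 genes tested, and Nlrc5 has the widest.

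As a group the members leaned as follows. For azacitidine in R882H, 7 values were above 0 and 2 below, with a median of 0.17 (log2), where all genes had a median of -0.04 and 44.3% above 0. In WT, 4 were above and 5 below (median -0.02; all genes 0.01). For the difference of responses, 8 were above and 1 below (median 0.14; all genes -0.05). For R882H against WT, 4 were above and 5 below under azacitidine (median -0.07; all genes -0.02), and 1 above and 8 below under NaCl (median -0.23; all genes 0.03). Without R882H NaCl replicate 2 the split under NaCl was 4 above and 5 below with a median of -0.12, that for azacitidine in R882H was 6 and 3 with a median of 0.05, and that for the difference was 5 and 4 with a median of 0.04. Groups did not overlap for no member for azacitidine in WT and none between genotypes under NaCl, where the shares over all genes were 5.73% and 1.97%. Comparisons that share a group of libraries are not independent of one another.

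The members were also read by replicate number in the 8 NaCl libraries, a split taken from earlier work on these data. Nlrc5 was at 29.4 to 45.8 CPM in the 4 libraries numbered 1 and 2, against 75.9 to 93.9 CPM in the 4 numbered 3 and 4. Erap1 was at 79.7 to 100 CPM against 123 to 139 CPM, and Tapbp at 296 to 329 CPM against 357 to 435 CPM. These 3 of the 9 members did not overlap, against 30.9% of all genes. The differences in mean were -1.19, -0.60 and -0.33 (log2). B2m, at 0.40, Psmb9, at 0.31, and Psmb10, at 0.26, ran the other way, and their libraries overlapped. Gene length moved with this split. Over all genes the median difference was 0.37 for the 5328 genes under 2 kb, -0.10 for the 7322 of 2 to 5 kb and -0.27 for the 5691 of 5 kb or more. Nlrc5 and Erap1 are the longest members, at 8493 and 7280 counted bases, and B2m and Psmb10 the shortest, at 860 and 1705, but Tapbp (3296) and Psmb9 (3659) are alike in length and differed in sign. The part of length in these values was not tested.

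The same balance was read in each library as the median deviation of short genes (under 2 kb) minus that of long genes (5 kb or more), on the log2 scale. In the 6 libraries where it was 0.167 or more, Nlrc5 was at most 45.8 CPM. In the 8 where it was -0.132 or less, Nlrc5 was at least 56.7 CPM. WT azacitidine replicates 1 and 3, at 0.046 and 0.096, had 56.4 and 75.7 CPM. The 6 libraries came from all 4 groups.

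**Figure D3:**
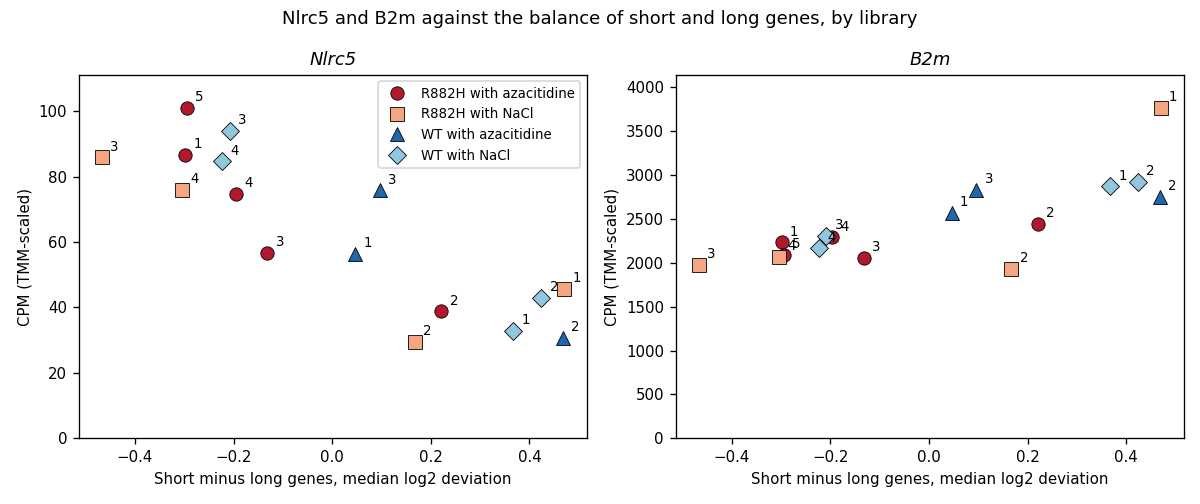
Nlrc5 (left) and B2m (right) in CPM against the median log2 deviation of genes under 2 kb minus that of genes of 5 kb or more, 1 point per library, with the replicate number beside it and the symbol showing the group. Nlrc5 is at most 45.8 CPM where the balance is 0.167 or more. B2m is highest, at 3766 CPM, in R882H with NaCl replicate 1, the library with the highest balance, 0.47.

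Ratios of the inducible subunits to the constitutive ones they replace were taken per library, in FPKM, and have no p. Psmb8 over Psmb5 was 0.982, 0.914, 0.929, 0.861 and 1.01 in R882H with azacitidine, against 0.541, 0.303, 0.99 and 0.948 with NaCl. In WT it was 0.692, 0.816 and 0.816 with azacitidine, against 0.818, 0.619, 1.13 and 0.845 with NaCl. The R882H azacitidine libraries were the most alike, and the R882H NaCl libraries split, with replicates 1 and 2 low. Psmb9 over Psmb6 averaged 0.388 ± 0.0372 in R882H with azacitidine, 0.325 ± 0.101 in R882H with NaCl, 0.453 ± 0.111 in WT with azacitidine and 0.366 ± 0.0352 in WT with NaCl. Psmb10 over Psmb7 averaged 6.8 ± 0.341 in R882H with azacitidine, 6.07 ± 2.07 in R882H with NaCl, 6.75 ± 0.921 in WT with azacitidine and 6.99 ± 0.758 in WT with NaCl. Over all libraries Psmb7 averaged 17.3 FPKM, against 184.6 for Psmb5 and 193.6 for Psmb6. FPKM depends on the counted length, so each ratio is read between libraries and not against the other ratios. In R882H NaCl replicate 2 these 3 ratios were the lowest of the series, at 0.303, 0.176 and 3.03.

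**Figure D4:**
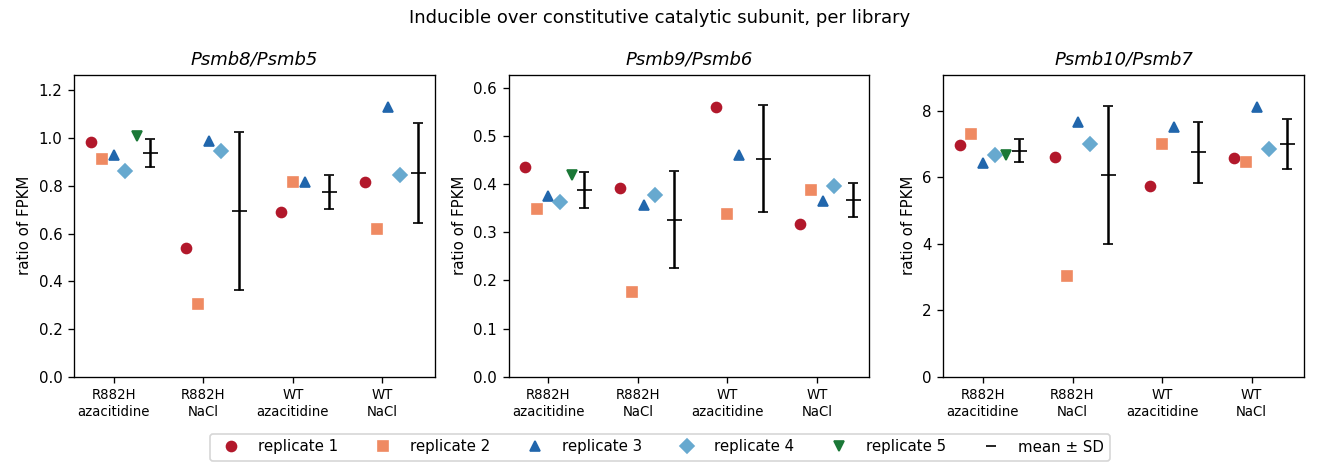
Ratio of FPKM of each inducible catalytic subunit over its constitutive counterpart, by library and group, with symbols for the replicate number and black bars for mean ± SD. R882H with NaCl replicate 2 is the lowest point in all 3 panels (0.303, 0.176 and 3.03).

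Tap1 and Psmb9, which start from the same stretch of promoter, did not keep a fixed ratio. Psmb9 over Tap1, in FPKM, was 1.1 ± 0.197 in R882H with azacitidine, 1.17 ± 0.356 in R882H with NaCl, 1.51 ± 0.19 in WT with azacitidine and 1.24 ± 0.293 in WT with NaCl. It ran from 0.885 to 1.72 over the 16 libraries. Pearson's r over them, given as a description, was 0.195 for this pair, 0.842 for Psmb9 and Psmb10 and 0.886 for Nlrc5 and Erap1. It was 0.853 for Psmb9 and B2m. Other pairs ran opposite, with -0.708 for Psmb10 and Erap1, -0.591 for Psmb9 and Erap1 and -0.523 for Psmb10 and Nlrc5. The libraries differ in the balance of short and long genes, which all pairs share.

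Other genes of the pathway and its regulation were read from 10 lists, chosen with earlier results known. Of their 108 genes tested, edgeR called 0 in each comparison and listed 3 to 10 at an unadjusted p under 0.05. Over all genes tested it called 0 to 0.0218% and listed 5.59 to 9.34%. DESeq2 called 1, Ifit3, an interferon-stimulated gene, for azacitidine in WT and on average. The DESeq2 counts over all genes in these comparisons are given above. Ifit3 was lower with azacitidine, at -2.36 (log2, by edgeR) in WT and -1.69 on average. The class I heavy chains, which hold the peptide, were mostly above 0 for azacitidine in R882H, with 11 of the 15 tested (median 0.11) and 1, H2-T10, at an unadjusted p under 0.05; in WT 7 were above. Without R882H NaCl replicate 2, 6 of 15 were above 0 in R882H (median -0.03). H2-K1 averaged 1036 ± 56.4 FPKM in R882H with azacitidine, 934 ± 216 in R882H with NaCl, 1040 ± 178 in WT with azacitidine and 1080 ± 65.4 in WT with NaCl, and heavy chain genes are so alike that reads may be split between them. H2-T10 was 0.42 (log2, adjusted p = 0.656 by edgeR) in R882H. The constitutive catalytic subunits were all below 0 in R882H, at a median of -0.29 over 3 genes, and so were the other 11 core subunits, at -0.19, where WT had 9 of 11 above 0. Without R882H NaCl replicate 2, 1 of the 3 (median -0.02) and 7 of the 11 (0.04) were above 0 in R882H. A sample of 14 ribosomal protein genes had 0 above 0 in R882H (-0.43) and 14 in WT (0.33), and the R882H value was -0.24 without that library. Erythroid and megakaryocyte markers had 3 of 12 above 0 in R882H (-1.81), at -0.58 without it. Their part in the proteasome values was not tested. Among loading partners, Tapbpl, Calr, Canx and Pdia3, the median was 0.05 in R882H and -0.06 in WT. The proteasome activator and assembly genes had 1 of 5 above 0 in R882H (median -0.16) and 3 of 5 in WT (0.02), and the other peptide trimming enzymes 2 of 6 (-0.08) and 3 of 6 (-0.01).

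Of 12 regulators of class I promoters, 9 were above 0 in R882H (median 0.09) and 4 in WT (-0.06), and without R882H NaCl replicate 2 they were 10 in R882H (0.06). Nfkb1, an NF-kB subunit, was 0.26 in R882H (adjusted p = 0.74 by edgeR). Creb1, a cyclic AMP response factor, was 0.50 in WT (adjusted p = 0.825), with a difference of responses of -0.63 (adjusted p = 0.763). Of 12 interferon receptor signalling genes, 9 were above 0 in R882H (0.15) and 3 in WT (-0.14), with 8 in R882H (0.06) without that library. Of 30 interferon-stimulated genes outside the members, 14 were above 0 in R882H (-0.02) and 3 in WT (-0.50), and 26 of 30 for the difference of responses (0.49), where the members had 8 of 9 (0.14). Without R882H NaCl replicate 2, the interferon-stimulated genes had 6 of 30 above 0 in R882H (-0.18) and 23 of 30 for the difference (0.39), and the members 5 of 9 for the difference (0.04). The class II genes, which present peptides from outside the cell, had 6 of 10 above 0 in R882H (0.06) and 1 of 10 in WT (-0.63), with 2 of 10 in R882H (-0.24) without that library. Lists of cell type markers, class II genes and ribosomal protein genes were read beside these in the difference of responses, and their directions differed. LSK markers had 10 of 10 above 0 (0.33), B and plasma cell markers 7 of 8 (0.58), class II genes 10 of 10 (0.51) and the ribosomal protein sample 0 of 14 (-0.81). Without R882H NaCl replicate 2 these were 7 of 10 (0.17), 7 of 8 (0.30), 10 of 10 (0.30) and 0 of 14 (-0.59). T and NK cell markers had 2 of 9 above 0 (-3.09), and 1 of 9 (-2.78) without that library. Of the 10 genes of that list, 8 averaged under 1 FPKM, so its median rests on genes near the floor. Erythroid and megakaryocyte markers had 1 of 12 above 0 (-1.83) and mast cell and basophil markers 3 of 9 (-0.91). Mature neutrophil markers had 4 of 8 (0.11) and macrophage and dendritic cell markers 6 of 10 (0.25). Without R882H NaCl replicate 2 these were 2 of 12 (-0.81), 4 of 9 (-0.86), 4 of 8 (-0.03) and 6 of 10 (0.02). The part of these lists in the values of the members was not tested.

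The genes whose log2 CPM followed the members' mean profile best over the 16 libraries were Neil1 (Pearson's r 0.917, Spearman's rho 0.679), Irf1 (0.879, 0.574), Mndal (0.878, 0.379), Tnfrsf13b (0.875, 0.347), Rnf122 (0.863, 0.471) and Rasal1 (0.86, 0.409), among 9570 compared. This profile averages members that did not all move together, with r between pairs from -0.708 to 0.886. The profile was -0.50 (log2) in R882H NaCl replicate 2 and between -0.10 and 0.19 elsewhere. Without the 2 libraries farthest from its median, r was 0.587 for Neil1, 0.465 for Irf1, 0.041 for Mndal, 0.206 for Tnfrsf13b, 0.34 for Rnf122 and 0.279 for Rasal1, so the likeness rests largely on them. Irf1, an interferon-induced transcription factor, averaged 46.2 ± 2.95 FPKM in R882H with azacitidine, 37.1 ± 13 in R882H with NaCl, 36.2 ± 6.06 in WT with azacitidine and 41.9 ± 7.35 in WT with NaCl.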

How the data were processed

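RNA from sorted LSK cells was sequenced after low-input cDNA amplification, per the labels' protocols. The authors deposited unnormalised read counts for each gene. The submitters' processing notes name HISAT2 2.0.5, featureCounts 1.6.2, edgeR 3.26.6 and the builds GRCm38 and mm10. The FPKM values the authors deposited are these counts per counted length and per effective library size, and the deposited length column (another unit) gives that length in bases. The strand and multi-mapping settings are not given in the sources used here. Rows of repeat families, 2.969 to 10.093% of the counts of a library, stayed out of library sizes and tests.

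Symbols and coordinates came from GENCODE vM21. With edgeR 4.0.16 in R 4.3.3, low genes were removed (filterByExpr), counts were scaled by TMM, and a quasi-likelihood model with 1 coefficient per group was fitted to all 16 libraries. Benjamini-Hochberg adjustment covered the 18341 genes left, with calls at an adjusted p under 0.05. The common dispersion was 0.166. Alternatives were DESeq2 1.42.0, RLE factors, no filter, a replicate block, and sets of libraries left out. Log2 CPM used a prior count of 2. No within-group pair of libraries was a duplicate.

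All 9 members are named in every comparison. Of the other lists, genes called or with the lowest unadjusted p were eligible, and the 6 genes most like the members' mean profile were named among those whose log2 CPM averaged at least 3. H2-K1, called in no comparison, and single cell type markers were named outside this rule. The members, lists and the split by replicate number were chosen with earlier results of these data known. Intervals cover the spread between libraries only, and amplified reads carry no molecular identifiers.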

Additional observations from a re-analysis of the deposited data

Results flagged for a closer look

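In 27 sets of libraries (the 9 members in the 3 groups of 4 or 5 libraries), 3 values stood far from the rest of their group by Dixon's gap to range ratio, where chance gives about 1 in 20. Psmb9 was at 293.1 CPM in R882H with azacitidine replicate 2, with a gap of 0.759 of the group's range, and Psmb10 was at 234.2 CPM in the same library (0.744). That library had summed mature neutrophil markers of 727 FPKM, against 3.74 to 11.3 FPKM in the other R882H azacitidine libraries. Its balance of short over long genes was 0.221, against -0.299 to -0.132 in those libraries. The part of either in the Psmb9 and Psmb10 values was not tested. B2m was at 3766 CPM in R882H with NaCl replicate 1 (0.924). Cd3d was at 11.2 FPKM there, against at most 1.24 FPKM in the other libraries. Summed T and NK cell markers, 98.6% of them Nkg7 over all libraries, were at 454 FPKM there, against 254 to 868 FPKM in the others. That library also had the highest balance of short over long genes, 0.47. The part of either in the B2m value was not tested.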

How the results depend on the processing

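In the 24 alternatives tried for each comparison, no member's call changed except that of Psmb9 for azacitidine averaged over genotypes, which rose by 0.34 (log2, adjusted p = 0.034 by edgeR) in libraries numbered 3 and above, 1 member called against 0; WT azacitidine is there a single library, assumed to vary like the others. Over that result's 24 alternatives the adjusted p ran from 0.034 to 1. Over all genes, the calls for azacitidine in R882H numbered 1, against 88 by DESeq2, 0 without a filter, 0 with the replicate block, 0 without R882H NaCl replicate 1 and WT azacitidine replicate 1, 0 without both R882H NaCl libraries numbered 1 and 2 (chosen after seeing the data), 53 in libraries numbered 1 and 2, and 233 in those numbered 3 and above. Leaving out 1 library gave 0 to 1. For azacitidine in WT they numbered 0, against 50 by DESeq2 and 1 in libraries numbered 3 and above, and 0 to 7 leaving out 1 library (7 without WT azacitidine replicate 3). For the difference they numbered 0, against 13 by DESeq2, 4 in libraries numbered 1 and 2 and 2 in those numbered 3 and above. For R882H against WT under azacitidine they numbered 1, against 21 by DESeq2, 0 without a filter, 0 with the replicate block, 0 without R882H NaCl replicate 1 and WT azacitidine replicate 1, 9 in libraries numbered 1 and 2 and 2 in those numbered 3 and above, and 0 to 1 leaving out 1 library. Under NaCl they numbered 1, against 31 by DESeq2, 0 without a filter, 0 without R882H NaCl replicate 1 and WT azacitidine replicate 1, 0 without both R882H NaCl libraries numbered 1 and 2, 2 in libraries numbered 3 and above, and 0 to 1 leaving out 1 library. On average they numbered 4, against 161 by DESeq2, 0 in libraries numbered 1 and 2, 860 in those numbered 3 and above, 102 without both R882H NaCl libraries numbered 1 and 2, and 2 to 46 leaving out 1 library (46 without WT azacitidine replicate 3, 23 without R882H NaCl replicate 2). The cause was not tested.

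Replicate numbers did not pair the libraries throughout. The 21 same-number correlations ran from -0.124 to 0.345, with 9 over 0.1, and those of unlike number from -0.415 to 0.375. Of the 16 libraries, 6 correlated best with their own number. The replicate block called no member. Lists without R882H NaCl replicate 2 were read after seeing the data. Levels by deposited FPKM or by counts per kb moved no log2 ratio of group means by more than 0.038, and ratios of subunits are the same on both scales by construction. Depth did not limit the members, whose lowest count was 1134.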
